A study of Mus musculus with 71 samples.

Results

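The genes described here are 7 that astrocytes use to take up, convert and sense glutamate: Slc1a2, Slc1a3, Glul, Slc7a11, Slc25a18, Grm3 and Grin2c. They were taken by name, through their Ensembl identifiers, from a table of raw read counts with 57010 genes, and each of the 7 matched 1 gene of that table and passed the filter on low counts. The study asked how a diet high in fat and sucrose, eaten from a young age, alters the hippocampus of male C57BL/6J mice, and whether limiting the hours of feeding changes this. All 71 mice were wild type. Mice had normal chow at all hours (NC ad lib), the high fat-high sucrose diet at all hours (HFS ad lib), or that diet with access to food limited to zt11 to zt1 during the last 4 of 12 weeks, after 8 weeks of free access (HFS TRF); each diet began at 3 weeks of age. Zeitgeber time (zt) counts hours from lights on.

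Each diet was sampled in 4 conditions. Home cage mice were taken without training at zt3, early in the light phase (HC zt3), or at zt15, in the dark phase (HC zt15). Trained mice explored objects for up to 10 minutes, the learning step of an object recognition memory (ORM) task, and were taken 1 h (ORM+1 h) or 12 h (ORM+12 h) later. There were 12 groups of 6 mice, except 5 in HFS TRF HC zt15. HC zt3 and ORM+1 h formed 1 experiment of 36 mice, and HC zt15 and ORM+12 h another of 35 mice, so that in any comparison of zt15 with zt3 the time of day and the experiment cannot be told apart. The RNA was that bound to ribosomes pulled down with an antibody to phosphorylated ribosomal protein S6 (pS6-TRAP), from the whole hippocampus and all its cell types, so a level depended on how much of a transcript lay on captured ribosomes.

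Glutamate released at excitatory synapses is cleared mainly by astrocytes, through the transporters Slc1a2 (GLT-1) and Slc1a3 (GLAST). Inside the astrocyte, glutamine synthetase, encoded by Glul, turns it into glutamine, which returns to neurons, and some enters mitochondria, through carriers such as the one encoded by Slc25a18. Slc7a11 (xCT) exports glutamate in exchange for cystine, a precursor of glutathione, and Grm3 and Grin2c encode glutamate receptors, a metabotropic one and an NMDA receptor subunit, that astrocytes carry as well as some neurons.

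In the GRCm39 annotation the members lie on 7 chromosomes: Slc1a2 at chr2:102488574-102621129 (plus strand), Slc1a3 at chr15:8663604-8741595 (minus), Glul at chr1:153775690-153785469 (plus), Slc7a11 at chr3:49846975-50398070 (minus), Slc25a18 at chr6:120750346-120777941 (plus), Grm3 at chr5:9534069-9776088 (minus) and Grin2c at chr11:115139992-115158525 (minus). All 7 are protein-coding, and reads were counted over their exons. Because the members moved together, the promoter sequences of a transporter (Slc1a3), of Glul and of Slc7a11, which followed the others least closely, are shown: the 250 bases before the RefSeq start of each, 5′ to 3′ on the gene's strand. Their positions are in GRCm38.p6, another build than that of the gene positions above: chr15:8710808-8711057 (minus strand) for Slc1a3, chr1:153899679-153899928 (plus) for Glul and chr3:50443614-50443863 (minus) for Slc7a11. Capitals mark matches, on either strand, to CCAAT or its reverse complement ATTGG, to GGGCGG (the GC box), to AGGTCA (a core sequence bound by nuclear receptors) and to TGATGCAA, the amino acid response element, or its reverse complement TTGCATCA.
Slc1a3: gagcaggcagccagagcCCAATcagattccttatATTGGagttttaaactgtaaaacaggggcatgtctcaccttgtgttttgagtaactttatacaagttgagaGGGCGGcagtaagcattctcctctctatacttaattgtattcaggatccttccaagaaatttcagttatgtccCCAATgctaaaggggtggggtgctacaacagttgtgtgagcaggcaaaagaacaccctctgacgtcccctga
Glul: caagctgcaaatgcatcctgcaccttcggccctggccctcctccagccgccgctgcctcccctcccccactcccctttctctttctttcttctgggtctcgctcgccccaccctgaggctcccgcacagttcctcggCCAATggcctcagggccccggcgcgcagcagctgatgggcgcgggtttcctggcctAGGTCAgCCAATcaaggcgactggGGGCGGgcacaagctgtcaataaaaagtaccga
Slc7a11: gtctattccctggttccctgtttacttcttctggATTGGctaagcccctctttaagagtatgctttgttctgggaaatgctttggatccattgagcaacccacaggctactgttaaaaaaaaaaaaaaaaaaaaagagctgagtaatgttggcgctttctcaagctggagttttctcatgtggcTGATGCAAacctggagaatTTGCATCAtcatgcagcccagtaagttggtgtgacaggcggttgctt
Promoter sequences were found for 7 of 7 members, and 6 motifs were searched in 32851 promoters of this length. CCAAT was present in Slc1a3, Glul and Slc7a11, and in 33.8% of all promoters. GGGCGG was present in Slc1a3, Glul, Grm3 and Grin2c, and in 32.7% of all promoters, while AGGTCA was present in Glul and Grin2c and in 14.02% of all. The Slc7a11 promoter held TGATGCAA 2 times, once on each strand, a motif found in 0.791% of promoters. Neither CACGTG, the E-box of clock factors (6.02% of promoters), nor TGACGTCA, the cyclic AMP response element (1.55%), was present in these letters in any of the 7 windows. These matches describe the windows only.

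Libraries held 34698914 to 62758570 counts. Levels are given as counts per 1000000 counts of the library (CPM), scaled by trimmed means of M values. Per kilobase of exon, the group medians of Glul were 112 to 359 CPM, those of Slc1a2 40.1 to 97.1 and those of Slc1a3 7.47 to 28.5. Slc25a18 (1.74 to 6.81), Grm3 (0.926 to 2.88), Grin2c (0.695 to 2.14) and Slc7a11 (0.262 to 0.826 CPM per kilobase) were lower, and even Slc7a11 had 136 to 967 counts in each mouse. Summed levels of marker genes checked the tissue: 10 neuron markers summed to 12467 to 17695 CPM, 16 astrocyte markers other than the members to 995 to 4710 CPM, and none of these markers was at 0 in any mouse. The sum of 9 choroid plexus markers ran from 101 to 18830 CPM over the mice, and that of 8 microglia markers from 39.8 to 460 CPM. At HC zt3 the mice numbered 5 and 6 lay above mice 1 to 4 in 7 of 7 members in both HFS diets and in 2 of 7 under NC ad lib, and the results that rest on them are given with and without them.

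At 12 h after training, all 7 genes had lower mean levels than in home cage mice of the same hour in each diet, but no single difference passed the test within a diet. A change passed the test where the quasi-likelihood test of edgeR gave an adjusted p (Benjamini-Hochberg, over 30141 genes) below 0.05. Of the 7 members, 0 passed for ORM+12 h against HC zt15 under NC ad lib, where 0.209% of all genes did, 0 under HFS ad lib (0.179% of genes) and 0 under HFS TRF (2.46% of genes). Unadjusted p-values were below 0.05 for 0 members under NC ad lib, 3 under HFS ad lib and 2 under HFS TRF, and a DESeq2 Wald test also gave 0 in each. The log2 fold changes ran from -0.39 to -0.04 (median -0.13) under NC ad lib, from -0.62 to -0.26 (median -0.38) under HFS ad lib and from -0.58 to -0.15 (median -0.53) under HFS TRF, while the median over all genes was 0 in each diet. With the diets averaged, Glul fell, with a change of -0.47 (SE 0.13, adjusted p = 0.0215), and was the 1 member of 7 that passed, beside 6.03% of all genes. Its level thus fell by 27.9% in trained mice. The other 6 had averages between -0.43 and -0.19. Marker sums of other cell types differed in the same comparison. The median sum of the 9 choroid plexus markers was 4981 CPM at HC zt15 and 380 at ORM+12 h under NC ad lib, 733 and 5445 under HFS ad lib and 7879 and 410 under HFS TRF, and 0 of the 9 passed in any diet. With a choroid plexus score as a covariate the members that passed were again 0 in each diet and 1 in the average. The neuron sum had medians of 14998 and 16581 CPM under NC ad lib, 15510 and 15400 under HFS ad lib and 14214 and 15564 under HFS TRF, and that of 8 myelinating oligodendrocyte markers 917 and 983, 1062 and 953, and 923 and 1228 in the same order. The part of the neuron and oligodendrocyte markers in the result was not tested. In bulk samples such as these, fewer astrocytes, or fewer captured ribosomes from them, and less RNA per cell cannot be told apart.

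Between the HC groups the genes were higher at zt15 than at zt3. All 7 rose under NC ad lib (11.7% of all genes changed), 2 of 7 rose under HFS ad lib (10.4% of genes), namely Slc1a2 and Glul, and 6 of 7 under HFS TRF (14.2% of genes), where Grm3 had an adjusted p of 0.0599. Averaged over diets, all 7 rose, by 0.62 to 1.11 on the log2 scale, beside 29.7% of all genes. The median log2 fold change of the members was 1.09 under NC ad lib, 0.63 under HFS ad lib and 1.06 under HFS TRF, against 0, -0.01 and 0 for all genes. The levels of every mouse did not overlap between the 2 times for 1 member under NC ad lib (Glul), for 0 under HFS ad lib and for 5 under HFS TRF. Of all genes, 1.54%, 1.24% and 3.1% had every mouse at zt15 above every mouse at zt3 in these diets.

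At 1 h after training the levels were set against HC zt3. All 7 rose under NC ad lib (5.73% of all genes changed) and under HFS TRF (2.87%), and 0 passed under HFS ad lib (1.23%), although all 7 had unadjusted p-values below 0.05 there and all 7 fold changes were above 0. DESeq2 called 1 under HFS ad lib, Slc7a11 (adjusted p = 0.0226), beside 2.48% of all genes. The log2 fold changes were 1.22 to 1.74 under NC ad lib, 0.50 to 0.85 under HFS ad lib and 1.01 to 1.32 under HFS TRF, and averaged over diets all 7 rose by 0.91 to 1.27 (14.6% of genes changed). The neuron markers moved the other way in summed level. Under NC ad lib the sum was 14140.5 to 16248.5 CPM at HC zt3 and 12467 to 14241.5 at ORM+1 h (medians 15193 and 12711), and the medians were 15253 and 14085 under HFS ad lib and 15454 and 14121 under HFS TRF. Of the 10 neuron markers 2 fell under NC ad lib and 0 in the other diets. Their part in the result was not tested. Levels did not overlap between trained and home cage mice for 7 members under NC ad lib, 0 under HFS ad lib and 2 under HFS TRF, while 3.19%, 0.819% and 2.14% of all genes had every trained mouse above every home cage mouse. The study had already named these 7 genes from its own 1 h results on the same mice, so that these counts are not independent evidence of a direction. The comparison shares its HC zt3 mice with that of zt15 against zt3, and the latter shares its HC zt15 mice with the comparison 12 h after training, so none of them is independent of the next.

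**Figure D1:**
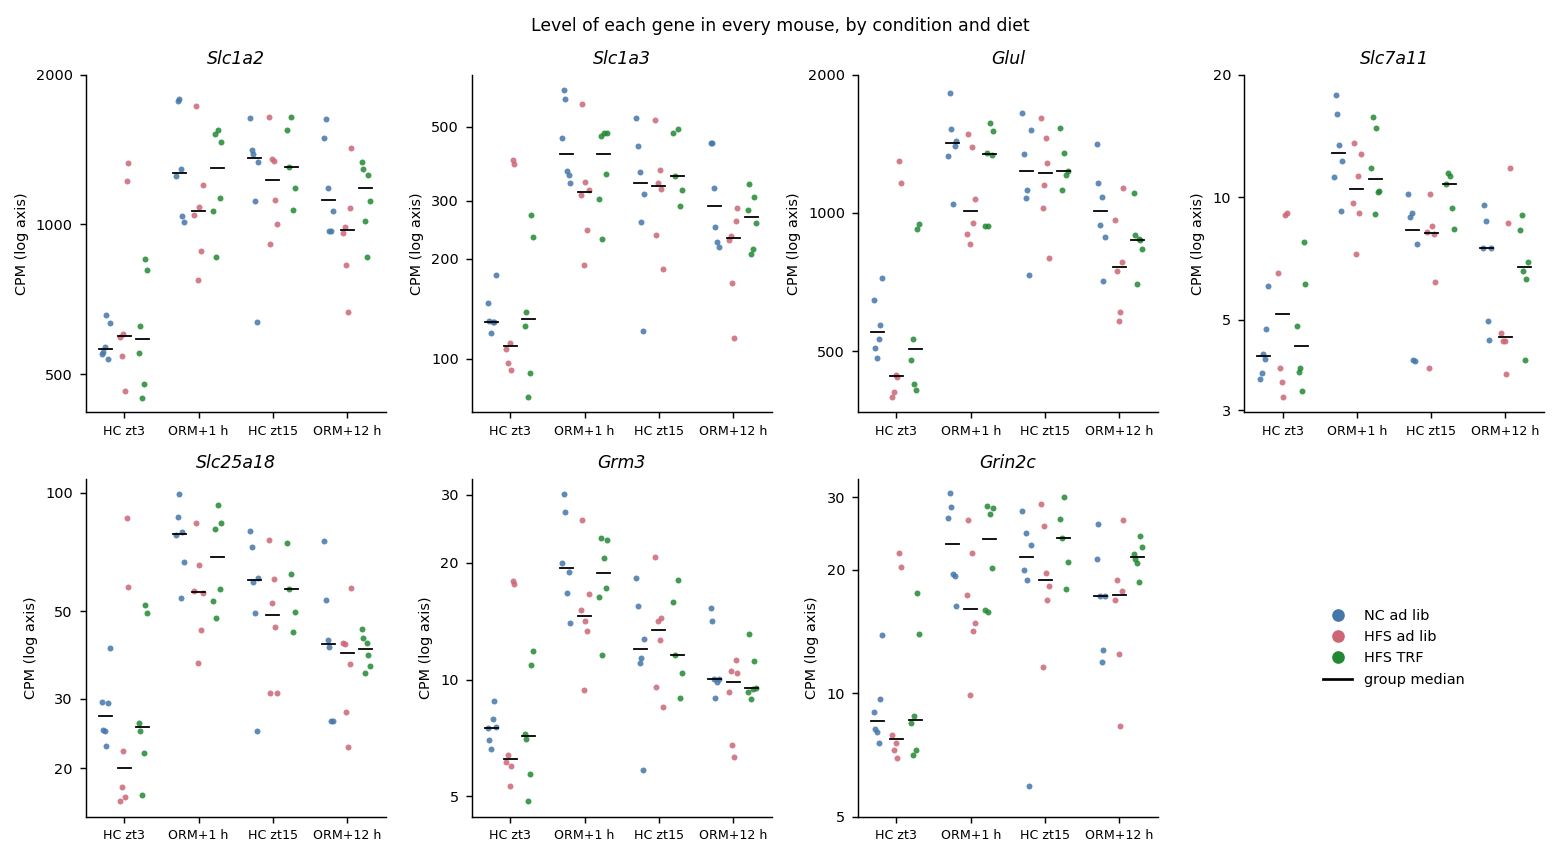
Each point is 1 mouse, its height the level of the gene in CPM on a log axis, by condition along the horizontal axis and by diet in colour, with black bars at group medians. The HC zt3 mice lie lowest in most panels, and 2 pink HFS ad lib mice at HC zt3 lie apart from the other 4 in each of the 7 panels (for Slc1a3 at 397 and 388 CPM, against 92.2 to 111).

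In the paragraphs on single genes, levels are the lowest, the median and the highest mouse of a group in CPM, changes are log2 fold changes with their standard error (SE) and adjusted p, and 3 changes in a row are those of the diets in the order above. Slc1a2, the transporter that carries most glutamate uptake in the forebrain, had a lowest, median and highest level at HC zt3 of 537, 561 and 659 CPM under NC ad lib, 463, 598 and 1328 under HFS ad lib and 449, 588 and 852 under HFS TRF. At HC zt15 it had 636, 1359 and 1634 CPM under NC ad lib and 915, 1231 and 1646 under HFS ad lib, and the 5 HFS TRF mice had 1069, 1181, 1307, 1545 and 1647. Levels at zt15 were above the highest at zt3 in 5 of 6 NC ad lib mice and in 5 of 5 HFS TRF mice, while the HFS ad lib groups overlapped. The change with the hour was 1.10 (SE 0.21, adjusted p = 6.34e-05) under NC ad lib, 0.63 (SE 0.21, adjusted p = 0.0352) under HFS ad lib and 1.10 (SE 0.22, adjusted p = 0.000102) under HFS TRF. Slc1a2 thus passed the test in all 3 diets. Under HFS ad lib it did not pass among protein-coding genes alone (adjusted p = 0.0532) or with only the groups compared (0.110). At 12 h after training its levels were 970.0, 1122 and 1631 CPM under NC ad lib, 667, 974 and 1426 under HFS ad lib and 860.1, 1186 and 1334 under HFS TRF, which overlapped with HC zt15 in each. The log2 fold change was -0.04 (SE 0.21, adjusted p = 1.00), -0.31 (SE 0.21, adjusted p = 0.435) and -0.24 (SE 0.22, adjusted p = 0.562) in the same order. In NC ad lib it had a 95% interval of -0.45 to 0.37. At 1 h the levels were 1013, 1269 and 1786 CPM under NC ad lib, 773, 1062 and 1729 under HFS ad lib and 858, 1298 and 1546 under HFS TRF, with changes of 1.22 (SE 0.21, adjusted p = 3.99e-05), 0.50 (SE 0.21, adjusted p = 0.258) and 1.01 (SE 0.21, adjusted p = 0.00142).

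Slc1a3, the transporter marking astrocytes and radial glia, moved most of the 7 under NC ad lib, both with the hour and 1 h after training. At HC zt3 it had 119, 129 and 178 CPM under NC ad lib, 92.2, 109 and 397 under HFS ad lib and 76.5, 132 and 271 under HFS TRF (lowest, median and highest). Its HC zt15 levels were 121, 339.7 and 531 CPM under NC ad lib, 187, 332 and 526 under HFS ad lib and, in the 5 HFS TRF mice, 288, 324, 355, 478 and 494. The HFS TRF mice at zt15 all lay above those at zt3, and 5 of 6 NC ad lib mice did. The fold changes were 1.29 (SE 0.31, adjusted p = 0.00202) under NC ad lib, 0.73 (SE 0.31, adjusted p = 0.115) under HFS ad lib, which did not pass, and 1.32 (SE 0.32, adjusted p = 0.00197) under HFS TRF. Levels 12 h after training were 217, 288 and 448 CPM under NC ad lib, 116, 231 and 284 under HFS ad lib and 206, 268 and 338 under HFS TRF. Each of these groups overlapped with its HC zt15 group. The changes against HC zt15 were -0.09 (SE 0.30, adjusted p = 0.981), -0.62 (SE 0.31, adjusted p = 0.287) and -0.54 (SE 0.32, adjusted p = 0.318). At 1 h after training Slc1a3 had 338, 415 and 647 CPM under NC ad lib, 191, 318 and 587 under HFS ad lib and 230.1, 416 and 481 under HFS TRF. In NC ad lib the lowest trained mouse was above the highest at HC zt3, and the rise of 1.74 (SE 0.31, adjusted p = 8.32e-05) was a 3.34-fold difference. The values in the other diets were 0.75 (SE 0.31, adjusted p = 0.253) under HFS ad lib and 1.32 (SE 0.31, adjusted p = 0.00629) under HFS TRF.

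Glul, which encodes the enzyme that makes glutamine from glutamate and ammonia, was the member with the clearest difference 12 h after training. In NC ad lib it had a lowest, median and highest level of 734, 1232 and 1646 CPM at HC zt15 and of 712, 1012 and 1414 at ORM+12 h. In HFS ad lib the levels were 797, 1219.7 and 1610.1 CPM at HC zt15 and 583, 765 and 1131 at ORM+12 h. The groups overlapped in both of these diets. In HFS TRF the 5 home cage mice had 1121, 1212, 1235, 1350.3 and 1533 CPM and the 6 trained mice 699.7, 875 and 1103, so that every trained mouse was below every home cage mouse. The share of all genes with such a separation was not counted for this comparison. The log2 fold changes were -0.26 (SE 0.22, adjusted p = 0.592), -0.60 (SE 0.22, adjusted p = 0.199) and -0.55 (SE 0.23, adjusted p = 0.159). Glul passed in the average over diets, as given above, and there in each alternative analysis and with any 1 mouse left out. In HFS TRF it also passed when the model held those 2 groups alone (adjusted p = 0.0137), in which 2.22% of all genes passed. With the hour, Glul rose in all 3 diets, from 483, 551 and 721 CPM at HC zt3 under NC ad lib, from 397, 443 and 1298 under HFS ad lib and from 413, 505 and 948 under HFS TRF. The rises were 1.10 (SE 0.23, adjusted p = 0.000226), 0.82 (SE 0.22, adjusted p = 0.00881) and 1.06 (SE 0.23, adjusted p = 0.000596), and NC ad lib and HFS TRF mice did not overlap between zt3 and zt15. With only the groups compared, the rise under HFS ad lib did not pass (adjusted p = 0.0900). At 1 h its levels were 1046, 1417 and 1824 CPM under NC ad lib, 855, 1012 and 1484 under HFS ad lib and 936, 1345 and 1570.3 under HFS TRF. Against HC zt3 this was 1.31 (SE 0.23, adjusted p = 4.82e-05), 0.68 (SE 0.22, adjusted p = 0.126) and 1.04 (SE 0.22, adjusted p = 0.00251). The processed pseudogene Glns-ps1, a copy of Glul elsewhere in the genome, had 1.83% to 2.44% of the Glul level in each mouse, and reads of the 2 genes may have been split between them.

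Slc7a11, the cystine and glutamate antiporter, was the least abundant member. It had 3.58, 4.07 and 6.04 CPM at HC zt3 under NC ad lib, 3.22, 5.16 and 9.15 under HFS ad lib and 3.35, 4.32 and 7.75 under HFS TRF (lowest, median and highest). At ORM+1 h it had 9.22, 12.8 and 17.8 CPM under NC ad lib, 7.25, 10.5 and 13.6 under HFS ad lib and 9.12, 11.1 and 15.7 under HFS TRF. Trained and home cage mice were apart under NC ad lib and HFS TRF and overlapped under HFS ad lib. The changes at 1 h were 1.60 (SE 0.26, adjusted p = 1.8e-05), 0.85 (SE 0.26, adjusted p = 0.0788) and 1.28 (SE 0.26, adjusted p = 0.00102); the value under HFS ad lib had the lowest adjusted p of the 7 there. At HC zt15 it had 3.97, 8.29 and 10.2 CPM under NC ad lib and 3.80, 8.17 and 10.2 under HFS ad lib, and the 5 HFS TRF mice had 8.36, 9.41, 10.7, 11.3 and 11.4, all above the HFS TRF mice at zt3. With the hour it changed by 0.75 (SE 0.26, adjusted p = 0.0461) under NC ad lib and 1.05 (SE 0.27, adjusted p = 0.00312) under HFS TRF, and under HFS ad lib the value was 0.35 (SE 0.26, adjusted p = 0.414), the smallest of the 7. The NC ad lib rise lost significance among protein-coding genes alone (adjusted p = 0.0615). At ORM+12 h Slc7a11 had 4.47, 7.50 and 9.57 CPM under NC ad lib, 3.68, 4.54 and 11.8 under HFS ad lib and 3.98, 6.75 and 9.02 under HFS TRF. These overlapped with HC zt15, with changes of -0.04 (SE 0.26, adjusted p = 1.00), -0.26 (SE 0.26, adjusted p = 0.650) and -0.58 (SE 0.27, adjusted p = 0.191).

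Slc25a18, a mitochondrial glutamate carrier, had at HC zt3 22.7, 27.2 and 40.3 CPM under NC ad lib, 16.5, 20.02 and 86.5 under HFS ad lib and 17.1, 25.4 and 51.8 under HFS TRF (lowest, median and highest). HC zt15 levels were 24.9, 60.0 and 79.8 CPM under NC ad lib, 31.0, 49.0 and 75.8 under HFS ad lib and 44.2, 49.8, 56.8, 62.3 and 74.7 in the 5 HFS TRF mice. The 2 times overlapped in each diet. The rise with the hour was 1.01 (SE 0.29, adjusted p = 0.0129) under NC ad lib and 0.85 (SE 0.30, adjusted p = 0.0461) under HFS TRF, and the value under HFS ad lib was 0.45 (SE 0.29, adjusted p = 0.345). Among protein-coding genes alone the HFS TRF rise did not pass (adjusted p = 0.0549). At 12 h after training the levels were 26.3, 41.4 and 75.2 CPM under NC ad lib, 22.6, 39.1 and 57.3 under HFS ad lib and 34.9, 40.0 and 45.1 under HFS TRF. The trained HFS TRF mice varied little, and only the highest of them overlapped with the home cage mice. The fold changes were -0.39 (SE 0.29, adjusted p = 0.514), -0.38 (SE 0.29, adjusted p = 0.522) and -0.53 (SE 0.30, adjusted p = 0.302), and with the 2 HFS TRF groups alone in the model the last had an adjusted p of 0.0219. At 1 h Slc25a18 had 53.9, 78.6 and 99.1 CPM under NC ad lib, 36.9, 56.1 and 83.9 under HFS ad lib and 48.0, 68.8 and 93.2 under HFS TRF, changes of 1.43 (SE 0.30, adjusted p = 0.000602), 0.66 (SE 0.29, adjusted p = 0.290) and 1.12 (SE 0.29, adjusted p = 0.0171). Its exons share 2819 bases with those of Atp6v1e1 on the opposite strand, a proton pump subunit at 435 to 689 CPM, and whether counting used the strand is not given in the sources used here. Glul shares 147 such bases with Teddm2 (1.93 to 5.40 CPM) and Slc1a2 shares 319 with Gm13872 (at most 0.122 CPM).

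Grm3, a metabotropic receptor that lowers cyclic AMP, had 6.64, 7.52 and 8.79 CPM at HC zt3 under NC ad lib, 5.31, 6.26 and 18.0 under HFS ad lib and 4.85, 7.15 and 11.9 under HFS TRF. By HC zt15 it was at 5.85, 12.0 and 18.3 CPM under NC ad lib and 8.50, 13.4 and 20.7 under HFS ad lib, and at 8.95, 10.4, 11.5, 15.8 and 18.0 in the 5 HFS TRF mice. Groups of the 2 times overlapped in all diets. The change was 0.72 (SE 0.25, adjusted p = 0.0499) under NC ad lib, just past the threshold, 0.43 (SE 0.25, adjusted p = 0.295) under HFS ad lib and 0.70 (SE 0.26, adjusted p = 0.0599) under HFS TRF. The first did not pass with DESeq2 size factors in edgeR (adjusted p = 0.0517) or among protein-coding genes alone (0.0667). At ORM+1 h the levels were 14.0, 19.4 and 30.1 CPM under NC ad lib, 9.42, 14.6 and 25.8 under HFS ad lib and 11.6, 18.9 and 23.2 under HFS TRF. In NC ad lib these lay clear of HC zt3. The rises were 1.48 (SE 0.26, adjusted p = 4.52e-05) under NC ad lib and 1.23 (SE 0.25, adjusted p = 0.00142) under HFS TRF, and the value under HFS ad lib was 0.67 (SE 0.25, adjusted p = 0.209). After 12 h the levels were 8.98, 10.0 and 15.3 CPM under NC ad lib, 6.30, 9.84 and 11.2 under HFS ad lib and 8.90, 9.49 and 13.1 under HFS TRF, with changes against HC zt15 of -0.13 (SE 0.25, adjusted p = 0.896), -0.55 (SE 0.25, adjusted p = 0.256) and -0.34 (SE 0.26, adjusted p = 0.477). Each overlapped with its home cage group.

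Grin2c, an NMDA receptor subunit that is abundant in hippocampal astrocytes, had 7.57, 8.57 and 13.9 CPM at HC zt3 under NC ad lib, 6.95, 7.74 and 21.9 under HFS ad lib and 7.09, 8.61 and 17.5 under HFS TRF. The highest NC ad lib mouse stood apart from the other 5. HC zt15 levels ran 5.95, 21.5 and 27.8 CPM under NC ad lib, 11.6, 18.9 and 28.8 under HFS ad lib and 17.9, 20.9, 23.9, 26.5 and 30.1 in the 5 HFS TRF mice, the last all above HFS TRF mice at zt3. For HC zt15 against HC zt3 the changes were 1.09 (SE 0.27, adjusted p = 0.00326) under NC ad lib and 1.18 (SE 0.28, adjusted p = 0.00171) under HFS TRF. The value under HFS ad lib was 0.74 (SE 0.27, adjusted p = 0.0653). At ORM+12 h Grin2c had 11.9, 17.3 and 25.9 CPM under NC ad lib, 8.33, 17.3 and 26.4 under HFS ad lib and 18.7, 21.5 and 24.2 under HFS TRF, each overlapping with its home cage group. The changes were -0.18 (SE 0.27, adjusted p = 0.837) under NC ad lib, -0.26 (SE 0.27, adjusted p = 0.676) under HFS ad lib and -0.15 (SE 0.28, adjusted p = 0.861) under HFS TRF. All 3 intervals included 0. At ORM+1 h it had 16.3, 23.1 and 30.7 CPM under NC ad lib, 9.91, 16.1 and 26.5 under HFS ad lib and 15.8, 23.7 and 28.5 under HFS TRF, changes of 1.32 (SE 0.27, adjusted p = 0.000672), 0.54 (SE 0.27, adjusted p = 0.362) and 1.11 (SE 0.27, adjusted p = 0.0101).

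**Figure D2:**
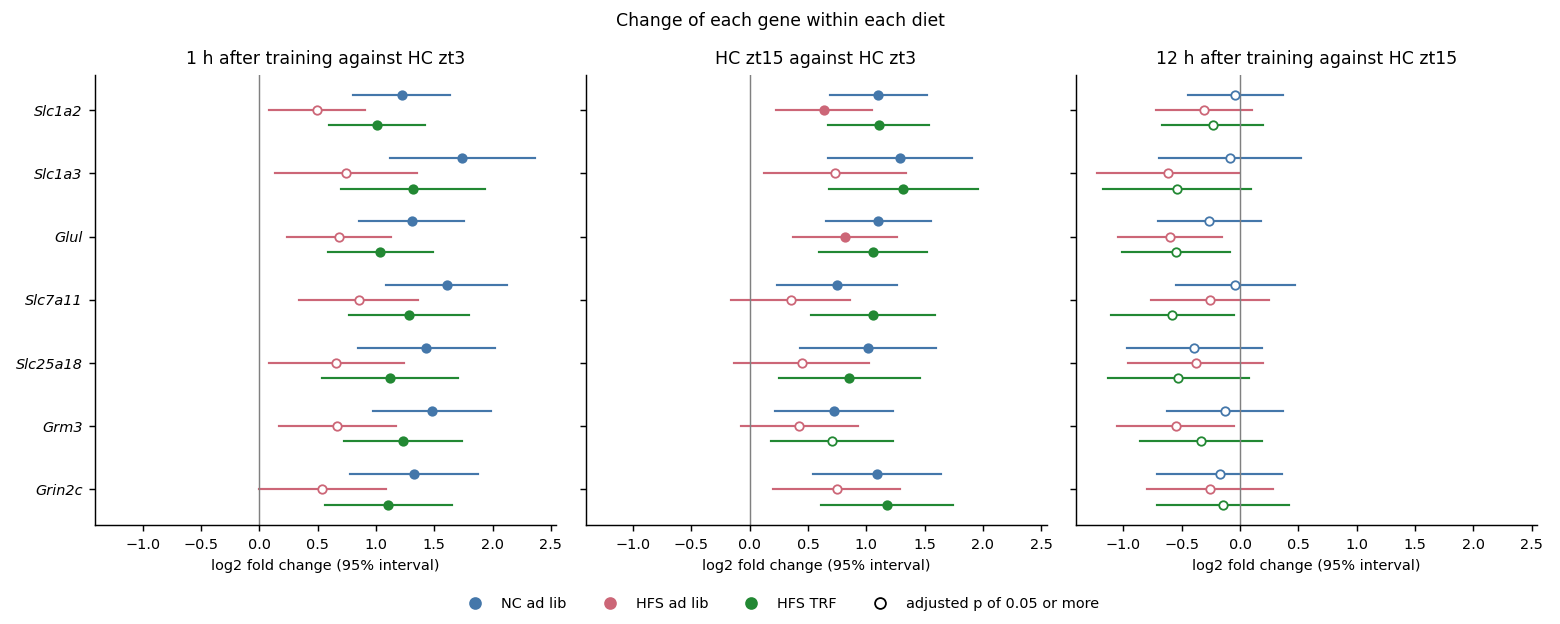
Points are log2 fold changes of the 7 genes (vertical axis) and lines their 95% intervals, for the 3 comparisons in separate panels and the 3 diets in colour; filled points passed the adjusted p threshold of 0.05. At 1 h all NC ad lib and HFS TRF points are filled and all HFS ad lib points are open, and at 12 h all 21 points are open and below 0.

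The 1 mouse with the lowest level of all 7 genes among NC ad lib mice at HC zt15 was number 5, and the 12 h changes under NC ad lib were further from 0 without it: Slc1a2 -0.18, Slc1a3 -0.26, Glul -0.38, Slc7a11 -0.17, Slc25a18 -0.55, Grm3 -0.28 and Grin2c -0.37. None of these passed (adjusted p 0.328 to 0.835). Mouse 5 was picked for its low levels, so changes further from 0 without it follow from the choice. The values are a description and no test. Mouse 1 of that group was the highest in 7 of 7 members, and the changes without it are not given here.

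In HFS ad lib the HC zt3 mice 5 and 6 carried high levels of all 7 genes. Slc1a3 was at 397 and 388 CPM in these mice and at 92.2 to 111 in mice 1 to 4. Glul was at 1298 and 1159 CPM against 397 to 445, and Slc25a18 at 86.5 and 57.5 against 16.5 to 22.1. Both mice were above mice 1 to 4 in 7 of 7 members and at or above the lowest trained mouse in 7 of 7. In HFS TRF the mice of these numbers were above mice 1 to 4 in 7 of 7 members, but reached the lowest trained mouse in 2 (Slc1a3 at 271 and 232 CPM and Slc25a18 at 51.8 and 49.4), and under NC ad lib both mice were above the other 4 in 2 members and reached the trained mice in 0. Egr1, an immediate early gene that neuronal activity induces, was at 196 and 199.7 CPM in the HFS ad lib mice 5 and 6, at 148 to 182 in mice 1 to 4 and at 369 to 583 in HFS ad lib ORM+1 h. The levels of the 2 mice were thus near those of home cage mice for Egr1 and within those of trained mice for the 7 members. The 16 other astrocyte markers moved with the members here too: their summed level in HFS ad lib HC zt3 ran from 1032 to 3508 CPM, with a median of 1143. Their part in the result was not tested.

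An analysis added after the data were seen left out mice 5 and 6 of HC zt3 in all 3 diets. In the HFS diets these mice were chosen for their high levels of the same members among the home cage mice. Larger changes without them follow there from the choice. Under NC ad lib the mice of the same numbers were left out as well. The values are a description and no test. Under HFS ad lib the changes were 1.02 to 1.71 at 1 h after training and 0.81 to 1.69 with the hour. Slc1a3 had 1.71 at 1 h and 1.69 with the hour, and Glul had 1.39 and 1.52. At the same threshold 7 of 7 members were called in each diet and in both comparisons. The shares of all genes called were 6.07% for NC ad lib, 3.25% for HFS ad lib and 3.05% for HFS TRF at 1 h, and 10%, 10.3% and 14.1% with the hour. Leaving out mouse 5 of HFS ad lib alone gave 4 members at 1 h (Glul, Slc7a11, Slc25a18 and Grm3, beside 2.06% of all genes) and 5 with the hour (10.9%).

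**Figure D3:**
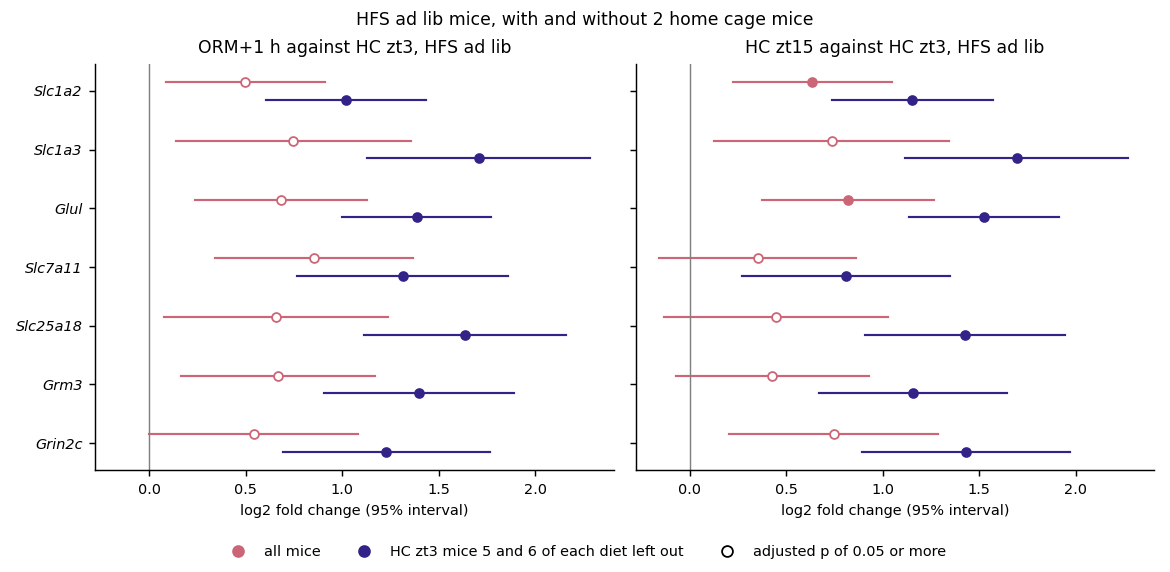
Log2 fold changes with 95% intervals of the 7 genes in HFS ad lib mice, 1 h after training (left) and at zt15 (right) against HC zt3, with all mice (pink) and without HC zt3 mice 5 and 6 of each diet (purple); filled points passed an adjusted p of 0.05. Every purple point is filled and lies to the right of its pink point.

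The diets were also compared directly, which asks whether the levels themselves differed. In 12 comparisons, of 3 pairs of diets in 4 conditions, 0 of 84 differences passed, and 1 had an unadjusted p below 0.05, that of Slc1a2 in HFS ad lib against NC ad lib at HC zt3 (0.44, adjusted p = 0.588). A DESeq2 Wald test also gave 0. The log2 fold changes ran from -0.57 to 0.52, and their 95% intervals from -1.17 to 1.13. At HC zt15 the share of all genes that changed was 0.063% for HFS ad lib against NC ad lib and 0% for both other pairs, and the members' values lay between -0.23 and 0.48. At ORM+12 h more genes differed by diet but 0 of the members did by this test: 2.27% of all genes changed in HFS ad lib mice against NC ad lib, 0.00664% between HFS TRF and HFS ad lib and 8.78% between HFS TRF and NC ad lib. All 7 members were lower under HFS ad lib than under NC ad lib there (-0.57 to -0.08, lowest adjusted p 0.277 for Slc1a3), and 7 of 7 were higher under HFS TRF than under HFS ad lib (0.07 to 0.36, lowest adjusted p 0.611), without passing. At HC zt3 and ORM+1 h, 0% of all genes changed in any of the 6 comparisons of diets. At ORM+1 h the members were at -0.48 to -0.28 under HFS ad lib relative to NC ad lib. They were at 0.18 to 0.38 under HFS TRF relative to HFS ad lib. At HC zt3 both signs were turned, at 0.26 to 0.52 and -0.35 to -0.16. Without HC zt3 mice 5 and 6 of each diet, these HC zt3 ranges were -0.49 to 0.13 and -0.11 to 0.30. The turned signs thus held for all 7 members only with these mice, which in the HFS diets were chosen for their high levels. Averaged over the 4 conditions, 0 of 21 differences passed, with values from -0.14 to 0.20 and intervals from -0.44 to 0.47. Of all genes, 2.61% changed for HFS ad lib against NC ad lib and 0% for HFS TRF against HFS ad lib. For HFS TRF against NC ad lib the share was 0.269%. Without the same mice the averages were -0.36 to -0.08, 0.11 to 0.27 and -0.15 to 0.11 for these pairs in that order. None of the members passed then (0.116%, 0% and 0% of all genes), and these values are a description.

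**Figure D4:**
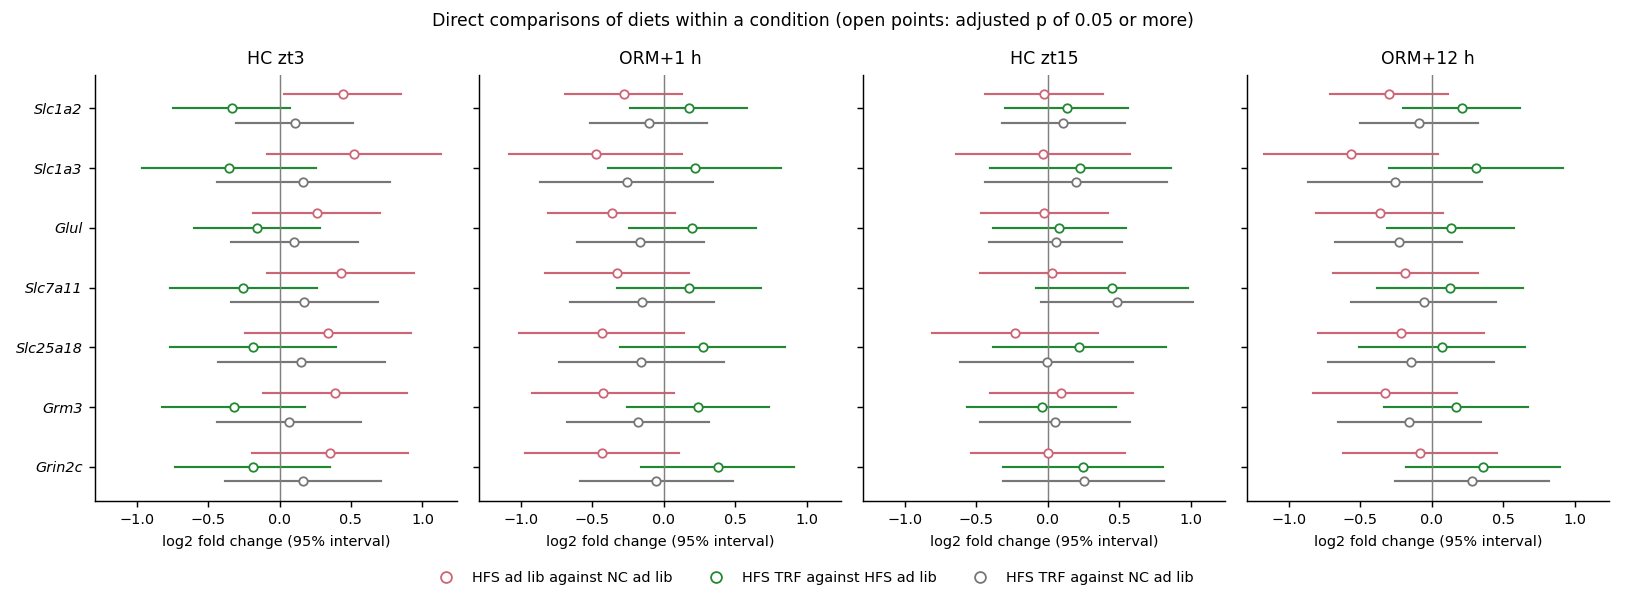
Log2 fold changes between diets with 95% intervals for the 7 genes, 1 panel for each condition and 1 colour for each pair of diets. All 84 points are open (adjusted p of 0.05 or more) and lie between -0.57 and 0.52.

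A change that passed in one diet and not in another is not thereby shown to differ between them, so the difference of each change between diets was tested. Over 6 such comparisons 0 of 42 values passed, and 5 had an unadjusted p below 0.05, all of them for the change at 1 h under HFS ad lib relative to NC ad lib. Those 5 were Slc1a2 (-0.72), Slc1a3 (-0.995), Slc7a11 (-0.75), Grm3 (-0.81) and Grin2c (-0.78), with adjusted p-values of 0.711 to 0.793. Of all genes, 0.106% changed differently 12 h after training in HFS ad lib mice than with NC ad lib, and 0% in the other 5 comparisons of this kind. Without HC zt3 mice 5 and 6 the 1 h differences of HFS ad lib against NC ad lib lay between -0.43 and 0.08. In the HFS diets these mice were chosen for their high levels of the members, so values nearer 0 follow from the choice and are no test. The members' responses to training or to the hour were thus not shown to differ between diets, with intervals that reached from -1.86 to 1.46.

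The change at 12 h was set against that at 1 h within each diet. In NC ad lib the 12 h change was lower for 7 of 7 members (-1.83 to -1.26, 7.13% of all genes), under HFS TRF for 7 of 7 (-1.86 to -1.25, 4.53% of genes), and under HFS ad lib for 1 of 7, Glul (-1.29 (SE 0.32, adjusted p = 0.0245), 0.916% of genes). The 2 changes came from different experiments and hours, each with its own home cage group, so experiment, hour and delay after training cannot be told apart here. The genes were named by the study for their rise at 1 h in the same mice, so the choice of genes favours a negative sign of this difference, and the counts are a description.

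The members moved with other astrocyte genes. Of 16 further astrocyte markers, 16 rose with the hour under NC ad lib, 5 under HFS ad lib and 15 under HFS TRF (medians 1.15, 0.67 and 1.10). Of all genes, 11.7%, 10.4% and 14.2% changed. At 1 h after training 16, 1 and 14 rose (medians 1.36, 0.54 and 1.02), beside 5.73%, 1.23% and 2.87% of all genes. At 12 h 0 passed in any diet, with medians of -0.22, -0.33 and -0.38 (0.209%, 0.179% and 2.46% of all genes). The marker list was chosen with earlier results of these data known. Over the 71 mice each member was correlated with the mean log2 level of these markers (Pearson's r 0.836 to 0.985), a description only, since the values come from the same libraries. Relative to that mean, the spread within groups was smaller for all 7: the SD of log2 CPM went from 0.56 to 0.16 for Slc1a3, from 0.40 to 0.15 for Glul, from 0.38 to 0.16 for Slc1a2, from 0.53 to 0.16 for Slc25a18, from 0.45 to 0.18 for Grm3, from 0.50 to 0.21 for Grin2c and from 0.47 to 0.31 for Slc7a11. The range of the 12 group means was smaller too, for example 0.36 in place of 1.71 for Slc1a3, and was largest for Slc7a11 (0.72) and Grm3 (0.61). Measured this way, 4 of the 7 were lower at zt15 than at zt3 in each diet, where their levels as such were higher: Grm3 (-0.44, -0.27 and -0.47), Slc7a11 (-0.42, -0.42 and -0.09), Slc25a18 (-0.13, -0.13 and -0.24) and Slc1a2 (-0.04, -0.11 and -0.07). Slc1a3 was higher at zt15 in each diet by this measure (0.08, 0.13 and 0.24), and Glul and Grin2c had both signs. These differences of means were not tested, and those of Slc1a2 were smaller than its SD of 0.16. The part of the astrocyte markers in the members' results was not tested.

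**Figure D5:**
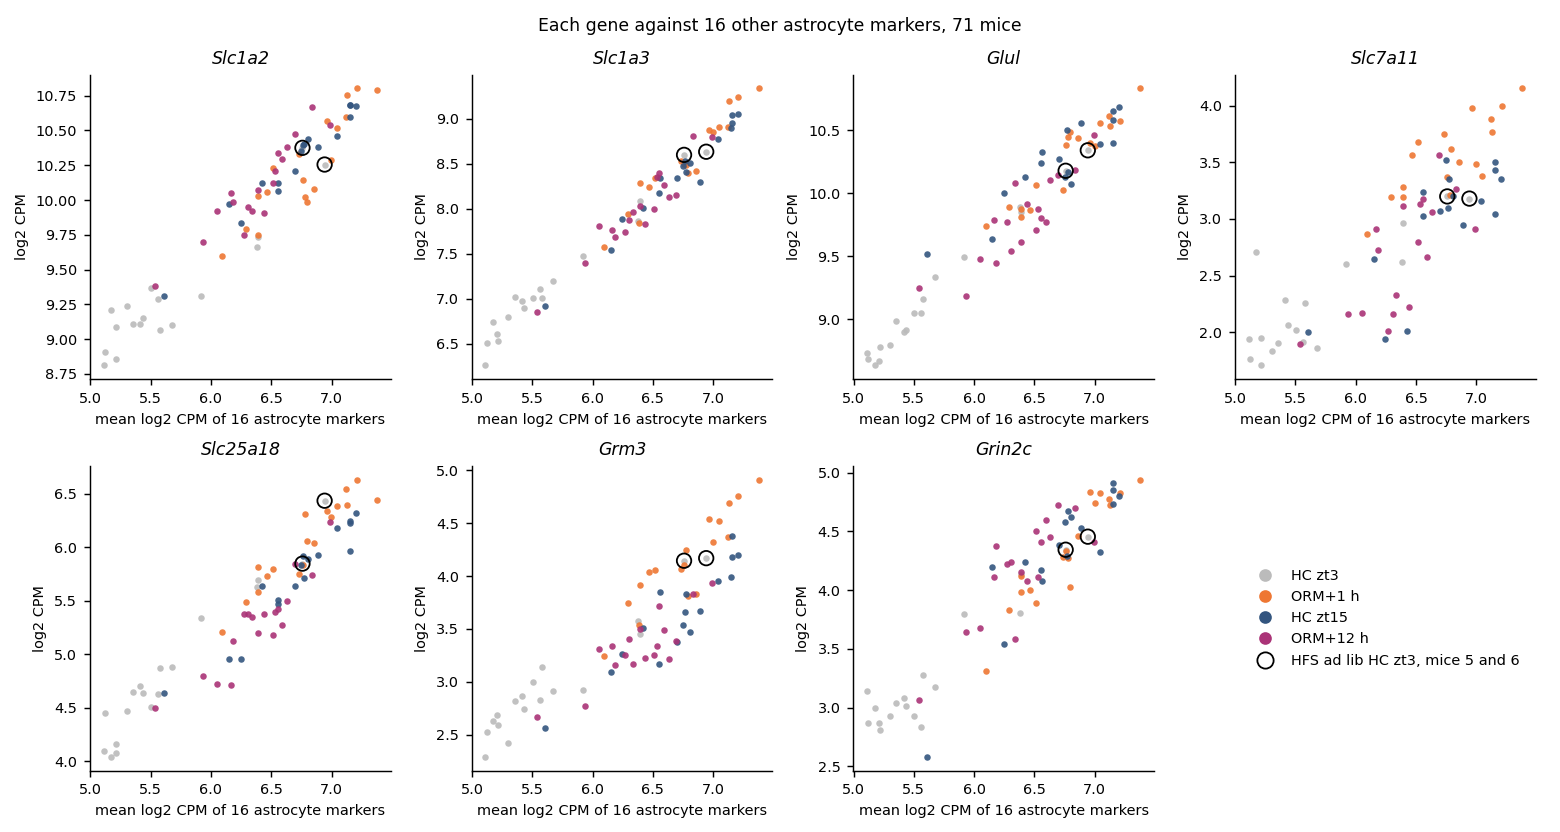
Each point is 1 of 71 mice, with the mean log2 CPM of 16 astrocyte markers on the horizontal axis and the log2 CPM of 1 gene on the vertical axis, coloured by condition; circles mark HFS ad lib HC zt3 mice 5 and 6. The circled mice lie along the same band as the others, among the trained and zt15 mice, and Slc7a11 scatters most (r 0.836).

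The genes most like each member over the 71 mice, by Pearson's r of log2 CPM among genes with a mean of at least 1 CPM, were in large part known from astrocytes. Slc1a2 was most like Slc4a4, a bicarbonate transporter (r 0.966), Slc1a3 like Gpr37l1, a receptor of astrocytes (0.984), and Glul, after its pseudogene Glns-ps1 (0.987), like Aldoc, the astrocytic aldolase (0.981). Slc7a11 was most like S1pr1, a receptor for sphingosine-1-phosphate (0.902), Slc25a18 like Tst (0.972), Grm3 like Pla2g7 (0.948) and Grin2c like Axl, a receptor tyrosine kinase (0.969). Among the 7 themselves r was 0.791 to 0.959, and 0.658 to 0.956 within groups.

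Beside the 7, 40 other genes of glutamate handling were listed and tested: 17 transporters, 11 enzymes and 12 receptors. With the hour, 5 of 40 changed under NC ad lib (beside 11.7% of all genes), 3 under HFS ad lib (10.4%) and 10 under HFS TRF (14.2%). The presynaptic receptor Grm2 rose under NC ad lib (0.66, adjusted p = 2.34e-05), under HFS ad lib (0.47, adjusted p = 0.00362) and under HFS TRF (0.35, adjusted p = 0.0474), and the glutamine transporter Slc38a2 rose under NC ad lib (0.30), under HFS ad lib (0.26) and under HFS TRF (0.37). The enzyme Aldh4a1, of proline breakdown, rose under NC ad lib (0.67, adjusted p = 0.00183) and under HFS TRF (0.53, adjusted p = 0.0183), and the NMDA receptor subunit Grin3a fell in both of these diets (-0.39, adjusted p = 0.0331, and -0.57, adjusted p = 0.00177). Glud1, glutamate dehydrogenase, rose under NC ad lib (0.37, adjusted p = 0.0141).

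At 1 h after training, 6 of the 40 changed under NC ad lib (4 higher, 2 lower), 0 under HFS ad lib and 2 under HFS TRF. Of all genes, 5.73%, 1.23% and 2.87% changed in the same order. Aldh4a1 (0.67), Glud1 (0.45) and Oat, ornithine aminotransferase (0.37), rose under NC ad lib, and Got2, the mitochondrial aspartate aminotransferase, fell (-0.22, adjusted p = 0.0258). In HFS TRF the 2 were Glud1 (0.38) and the neutral amino acid transporter Slc1a4 (0.33). At 12 h, 0 of 40 changed under NC ad lib (0.209% of all genes) and under HFS ad lib (0.179%) and 3 under HFS TRF (2.46%). The 3 are named here after their values were seen: Grm2 rose (0.67), as did the vesicular transporter Slc17a7 of glutamatergic neurons (0.41), and Oat fell (-0.52). Averaged over diets, 8 of 40 changed at 12 h, 5 higher and 3 lower, beside 6.03% of all genes. Higher were Grm2 (0.52), the NMDA receptor subunits Grin2a (0.30) and Grin2b (0.28), and the transporters Slc38a5 (0.67) and Slc17a7 (0.22). Lower were the enzymes Oat (-0.29), Glud1 (-0.22) and Pcx (-0.18). Glul fell in the same comparison, and the part of neuron genes in this was not tested. Between diets at ORM+12 h, 6 of 40 genes were lower under HFS TRF than under NC ad lib, all of them enzymes, beside 8.78% of all genes. In the other 2 pairs of diets at that hour 0 of 40 differed. The shares of all genes were 2.27% for HFS ad lib against NC ad lib and 0.00664% for HFS TRF against HFS ad lib.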

How the data were processed

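Ribosome-bound (pS6-TRAP) RNA of the hippocampus was sequenced from 71 male mice in 12 groups, as stranded 50-base paired-end libraries. Per the labels and the study's methods, the authors trimmed reads with Trim Galore 0.6.7 and cutadapt 3.4, aligned them with HISAT2 2.2.0 and counted them per gene with featureCounts (Subread 2.0.3) on GRCm39. The submitters' processing notes also list mm9, with no role given. The deposited values are raw counts of reads per gene. Of counts from 1 to 19, 79.0% were even, and of counts of 200 or more, 60.8%, so that many pairs may weigh 2 counts. A uniform weight of 2 would not alter fold changes. Its bearing on the count filter, the spread and the p-values was not tested.

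Counts were tested as deposited with edgeR 4.0.16 in R 4.3.3 (quasi-likelihood F test, TMM scaling, genes with at least 10 counts in total, 30141 genes). A single model of 12 groups gave 36 comparisons, each with Benjamini-Hochberg adjustment over all genes and a threshold of 0.05. SEs were the log2 fold change over the root of F, and intervals cover 95%. The study used 1 DESeq2 model, run here as an alternative (1.42.0). Other alternatives were DESeq2 size factors, 2 other count filters, protein-coding genes alone, only the groups compared, choroid plexus markers as a covariate, replicate numbers as a block, and each mouse left out. With a mouse left out, the trended dispersion was taken from the fit of all 71 mice and not estimated again. Those fits are thus not fully free of the mouse left out. Log2 CPM for correlations had a prior count of 2. Scripts were tested on simulated counts with known changes. Gene positions came from a GRCm39 annotation, which matched 56310 of 57010 genes.

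The members and the gene lists were chosen with earlier results of these data known. Named genes were the 7 members, up to 4 further genes of glutamate handling with the smallest adjusted p in a comparison in which a member passed, and, for each member, the 3 genes with the most similar levels. Same-numbered mice were not treated as pairs: in 0 of 21 comparisons did the deviations of every pair correlate above 0.1 (r -0.69 to 0.71). No 2 mice of a group had the same counts within sampling noise (175 pairs, chi-square per degree of freedom 9.80 to 163).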

Additional observations from a re-analysis of the deposited data

Results flagged for a closer look

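In 1 of 84 sets of mice (7 genes in 12 groups) a mouse lay far from the others of its group by Dixon's criterion: Grin2c under NC ad lib HC zt3, where replicate 6 had 13.9 CPM. Chance gives such a mouse in about 1 of 20 sets.

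The change 12 h after training was lower than that at 1 h by a test of the difference itself, in edgeR's quasi-likelihood test, for all 7 genes under NC ad lib and under HFS TRF and for 1 under HFS ad lib. On the log2 scale the differences under NC ad lib were -1.26 for Slc1a2, -1.83 for Slc1a3, -1.57 for Glul, -1.65 for Slc7a11, -1.83 for Slc25a18, -1.61 for Grm3 and -1.50 for Grin2c. In HFS ad lib the difference for Glul was -1.29. In HFS TRF they were -1.25 for Slc1a2, -1.86 for Slc1a3, -1.59 for Glul, -1.86 for Slc7a11, -1.65 for Slc25a18, -1.57 for Grm3 and -1.25 for Grin2c. The genes were named for their rise at 1 h in the same mice, so the sign of the difference is favoured by their choice and is no independent evidence. The 2 delays belong to different experiments and hours, which cannot be told apart from the delay.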

How the results depend on the processing

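The number of members that passed stayed within 1.5 times the reported one under every alternative, except as follows. In HFS ad lib, HC zt15 against HC zt3 gave 1 member with protein-coding genes alone and 0 with only the groups compared, in place of 2, and the change at 1 h gave 1 with DESeq2 in place of 0. The change at 12 h under HFS TRF gave 2 with only the groups compared in place of 0. The 12 h minus 1 h difference under HFS ad lib gave 2 with DESeq2 and 0 with only the groups compared, in place of 1. After the data were seen, HC zt3 mice 5 and 6 were left out in all diets. They were chosen for high levels of the members in the HFS diets. HFS ad lib then gave 7 in each of the comparisons of zt15, of 1 h and of 12 h minus 1 h. The cause was not tested.

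With 1 mouse left out at a time, the counts ran, for zt15 against zt3, from 5 to 7 under NC ad lib, 1 to 5 under HFS ad lib (5 without HC zt3 replicate 5) and 5 to 7 under HFS TRF. At 1 h they were 7 under NC ad lib, 0 to 4 under HFS ad lib (4 without HC zt3 replicate 5) and 6 to 7 under HFS TRF, and for 12 h minus 1 h 7, 0 to 4 (4 without HC zt3 replicate 5 or 6) and 6 to 7. The other counts did not move: 0 at 12 h in each diet and in every comparison of diets, 1 for the 12 h average and 7 for the other 2 averages. Of values that passed, 0 of 472 changed sign under the alternatives that kept all mice and 8 no longer passed, and 0 of 1227 changed sign with a mouse left out, where 64 no longer passed. Of values that had not passed, 17 of 1628 and 172 of 3736 changed sign, and 9 and 24 passed.

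As a replicate block, the mouse numbers made Grin2c pass under HFS ad lib (adjusted p = 0.0446) and Grm3 under HFS TRF (0.0314) for zt15 against zt3, and moved the 12 h minus 1 h count under HFS ad lib to 2, with Grm3 (0.0498). In 0 of 21 comparisons did every same-numbered pair correlate above 0.1, a strict criterion. HFS TRF against NC ad lib at HC zt3 had 5 of 6 pairs above it. The median r of a comparison ran from -0.30 (HFS TRF against NC ad lib, HC zt15) to 0.42 (HFS TRF against HFS ad lib, ORM+1 h). The numbers 5 and 6 were high at HC zt3 in both HFS diets, and whether numbers mark a batch was not tested. A block within each condition changed no count of the diet comparisons.

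Replicates were separate mice, caged in groups of 6, and no cage label was used here, so that cage and group cannot be told apart. Intervals of diet differences reached about 1 on the log2 scale at 6 mice a group.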
